A study of Mus musculus with 24 samples.

Results

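Potassium channel genes were taken as every gene of both deposited count tables whose symbol starts with Kcn and follows the usual pattern of a channel subunit, and 93 of the 24062 gene symbols met this rule. By symbol, 40 encode voltage-gated pore subunits, 12 auxiliary subunits of voltage-gated channels, 12 calcium- or sodium-activated channels and their partners, 15 inward rectifiers and 14 leak channels (K2P). Of the 93 genes, 90 had at least 1 count in a library and 42 reached a mean of 1 CPM (the count scaled to a common library size, after an adjustment for composition) in at least 1 group. After the filter on low counts, 56 were tested at 4 weeks and after running, 55 at 18 months, and 34 in neither table. A gene that is seen in only 1 genotype can pass this filter through that genotype alone, so the tested genes are not a neutral sample of the 93.

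The libraries hold polyadenylated RNA of quadriceps from C57BL/6 mice. Corrected mice carry the delEx44 mutation of Dmd, the dystrophin gene, and were injected intraperitoneally 4 days after birth with a pair of AAV9 vectors, for the guide RNA and for SpCas9. At the 4-week and 8-week stages the dose was 8e13 vector genomes per kg of each vector, with a self-complementary guide vector, and at 18 months it was 2.5e14 of a single-stranded guide vector and 5e13 of the Cas9 vector. The delEx44 mice carry the same mutation with no editing, and WT mice carry neither. Each genotype was sampled sedentary at 4 weeks of age (3 libraries each), at 8 weeks after 1 month of downhill running every other day at 12 m/min and a 15 degree decline (2 each), and sedentary at 18 months (3 each). Running and growth from 4 to 8 weeks come together and cannot be told apart. At 18 months, age, count table and, in corrected mice, vector dose and vector form come together in the same way. Nothing in the labels names the sex of the mice, and p-values measure the spread between these libraries.

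Potassium channels let potassium cross the cell membrane, and so set the resting potential and end each action potential. In a fast limb muscle fibre, inward rectifiers of the Kcnj2 and Kcnj12 kind hold the T-tubule membrane at rest, voltage-gated channels shorten the action potential, and the ATP-sensitive channel built of Kcnj11 opens when the fibre runs short of energy. Calcium-activated channels of small conductance are known from denervated and immature muscle, and the intermediate-conductance channel Kcnn4 and Kcna3 are known from immune cells.

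Upstream sequence is shown for 4 channel genes: Kcng4 and Kcnn1, which were lower in delEx44 than in WT muscle at every stage, Kcnn3, which was higher at every stage, and Kcnk5, which was higher at 18 months. Each is the 250 bases before the start of the gene in the RefSeq promoter table (GRCm38.p6), read 5′ to 3′ on the strand of the gene, and capitals mark matches to a searched motif. For Kcnn1 the table has more than 1 start, and the most upstream is shown.
Kcng4, minus strand, chr8:119635681-119635930: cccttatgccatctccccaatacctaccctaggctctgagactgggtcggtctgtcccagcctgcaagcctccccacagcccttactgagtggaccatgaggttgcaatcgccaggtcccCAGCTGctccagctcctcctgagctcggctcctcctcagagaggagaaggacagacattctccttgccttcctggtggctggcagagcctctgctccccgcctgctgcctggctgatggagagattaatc
Kcnn1, minus strand, chr8:70863259-70863508: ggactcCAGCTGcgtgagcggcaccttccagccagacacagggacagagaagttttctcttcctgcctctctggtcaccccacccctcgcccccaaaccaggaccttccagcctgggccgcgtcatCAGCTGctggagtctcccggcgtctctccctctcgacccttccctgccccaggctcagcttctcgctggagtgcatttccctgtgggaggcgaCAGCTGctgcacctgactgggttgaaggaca
Kcnn3, plus strand, chr3:89519914-89520163: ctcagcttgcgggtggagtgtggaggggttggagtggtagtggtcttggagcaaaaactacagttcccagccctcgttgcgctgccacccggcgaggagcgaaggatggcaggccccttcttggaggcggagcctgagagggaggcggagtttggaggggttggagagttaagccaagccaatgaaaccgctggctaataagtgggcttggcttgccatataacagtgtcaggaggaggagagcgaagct
Kcnk5, minus strand, chr14:20181783-20182032: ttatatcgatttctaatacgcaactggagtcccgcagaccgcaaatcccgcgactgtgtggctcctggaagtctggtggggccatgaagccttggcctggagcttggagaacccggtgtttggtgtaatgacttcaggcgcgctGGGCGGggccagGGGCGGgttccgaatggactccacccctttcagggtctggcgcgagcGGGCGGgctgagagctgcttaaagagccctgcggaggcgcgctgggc

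Kcnn1 holds CAGCTG, the E-box read by myogenic factors such as MyoD, at positions -244, -124 and -31 from its start, and Kcng4 holds it at -130. Counted per gene over any of its listed starts, CAGCTG was within 250 bases in 17 of the 68 channel genes with a sequence and in 14.7% of all 27025 genes that the RefSeq table lists. It was in 3 of the 6 channel genes with a sequence that were lower in delEx44 at every stage (Kcna2, Kcng4 and Kcnn1) and 1 of the 4 that were higher (Kcne1l). Kcnn3 holds none of the searched motifs in this window. Kcnk5 holds the GC box GGGCGG at -106, -94 and -47. That motif is in 41 of the 68 channel genes and in 35.4% of all genes, in 4 of the 6 lower genes, with Kcnn1 among them only through a start not shown here, and in 2 of the 4 higher ones. The AP-1 motif TGACTCA was in 2 of the 68 and in 5.16% of all genes, the PU.1 motif GAGGAAGT in 0 of the 68 and in 2.79%, and the MEF2 motif in 1 of the 68 and in 0.592%. All motifs were read on both strands, and a match describes these letters and is not a binding site.

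Gene-assigned counts ran from 30552867 to 38090522 per library at 4 weeks and after running, and from 23125930 to 31254175 at 18 months. Dmd averaged 161 CPM in corrected, 39.7 in delEx44 and 217 in WT libraries at 4 weeks, 92.1, 41.3 and 154 CPM after running, and 235, 85.7 and 371 CPM at 18 months, in the same order of genotypes. The summed level of 7 muscle fibre markers lay between 72484 and 93115 CPM in delEx44 and between 159575 and 184450 CPM in WT libraries at 4 weeks, and that of 7 macrophage markers between 1085 and 1581 CPM in delEx44 and between 190.7 and 233.5 CPM in WT. At 4 weeks 6 of 7 fibre markers were lower and 7 of 7 macrophage markers higher in delEx44, at 18 months 6 of 7 and 7 of 7, and after running 0 of 7 and 7 of 7. After running the fibre marker sum was still 113583 to 128828 CPM in delEx44 and 146203 to 148332 CPM in WT, without overlap. A marker that did not pass is not shown to be equal. In bulk muscle, fewer cells of a type and less RNA per cell cannot be told apart, and the part of these cell types in the results was not tested. Some libraries stood apart. WT replicate 3 at 4 weeks had a neutrophil marker sum of 194.9 CPM, against at most 0.397 CPM in the other WT libraries of that stage. WT replicate 1 after running had 335 CPM of adipocyte markers, against 68.6 CPM in replicate 2. The corrected libraries at 18 months spread from 169.8 to 655 CPM of macrophage markers and from 13.2 to 944 CPM of slow fibre markers.

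In WT muscle at 4 weeks the highest level per exon length was that of Kcna7, a voltage-gated subunit typical of muscle, at 87.0 ± 13.7 CPM per kb (SD, n = 3). Kcnj11 followed at 36.7 ± 2.97 CPM per kb and Kcnj12 at 34.7 ± 2.34 CPM per kb, which did not differ beyond their spread. Kcng4 had 27.1 ± 5.45 and Kcnc4 26.4 ± 1.80 CPM per kb, again within their spread. Kcnj2 had 10.7 ± 0.996, Kcnc1 9.05 ± 1.55, Kcnj8 7.02 ± 1.52 and Kcna5 6.85 ± 1.41 CPM per kb, neighbours that overlapped from each to the next. Kcna7 ranked first in all 9 groups. Over all 93 genes the summed level at 4 weeks was 1101 ± 47.6 CPM in corrected, 713 ± 56.9 CPM in delEx44 and 1064 ± 106 CPM in WT libraries. After running it was 1121 ± 23.0, 919 ± 45.4 and 1254 ± 66.4 CPM (n = 2), and at 18 months 1045 ± 91.4, 889 ± 22.6 and 1169 ± 28.7 CPM, in the same order of genotypes.

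**Figure D1:**
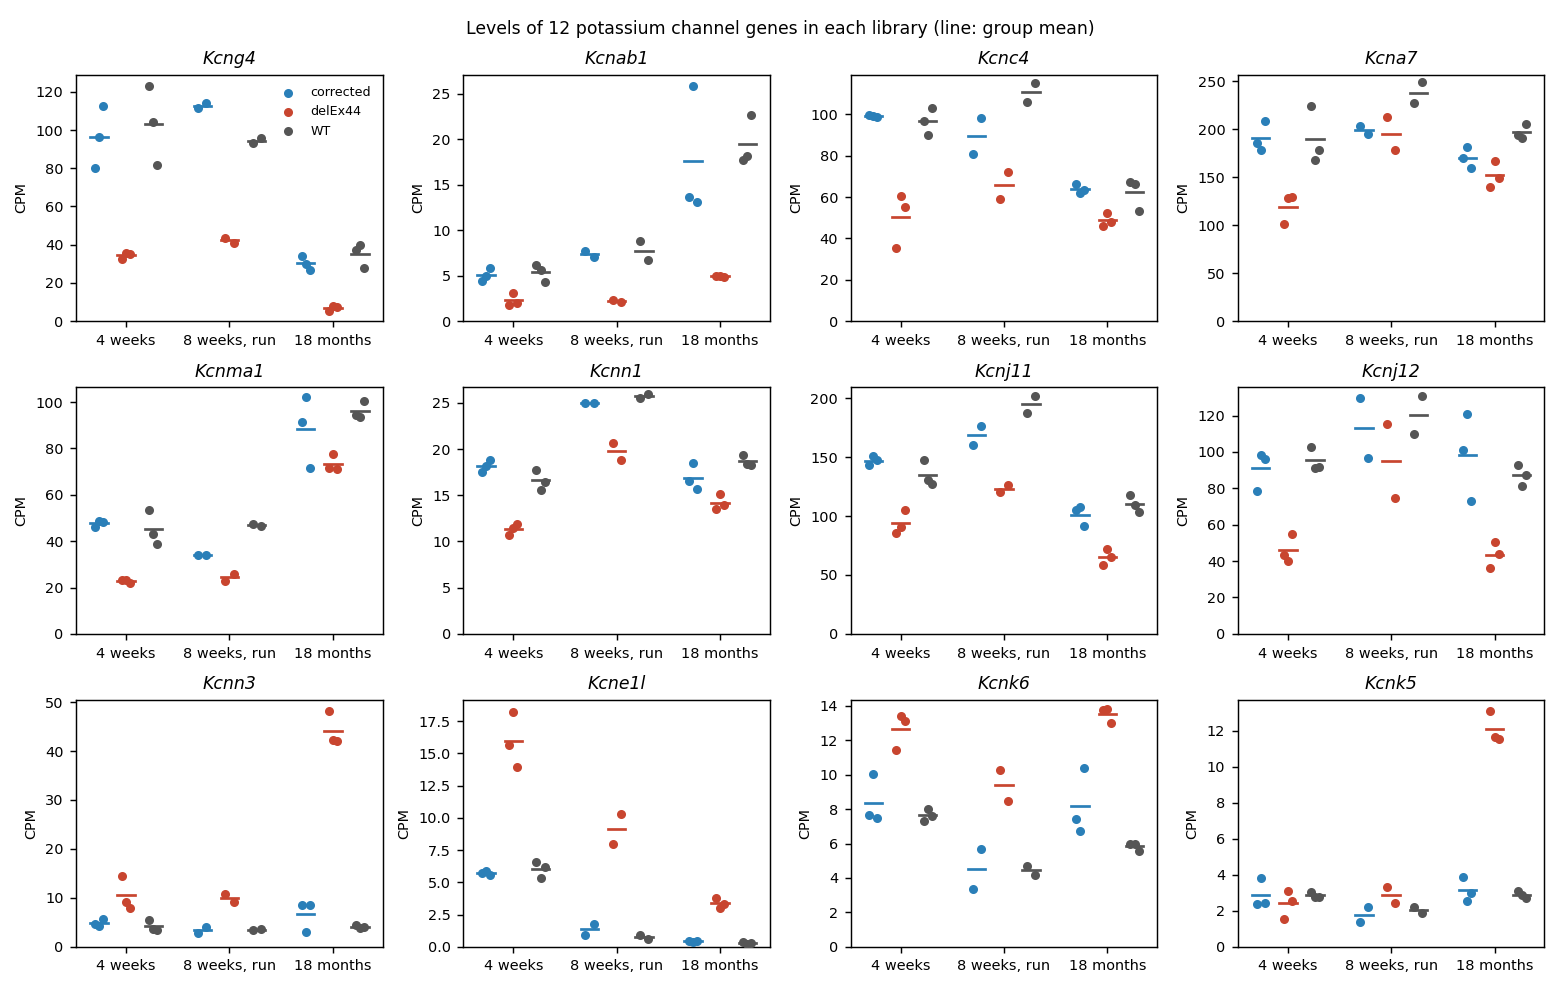
CPM of 12 channel genes in each library (points) with the group mean (line), for corrected (blue), delEx44 (red) and WT (grey) at 4 weeks, at 8 weeks after running and at 18 months. Kcng4 stands lower in the delEx44 libraries at each stage, Kcnn3 and Kcne1l stand higher, and Kcnk5 stands higher at 18 months, between 11.5 and 13.1 CPM; 18-month levels come from a separate table.

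Each comparison was tested with edgeR's quasi-likelihood test over all genes, with p-values adjusted by the Benjamini-Hochberg method and a threshold of 0.05, and folds are log2 with their SE. At 4 weeks 24 of the 56 tested channel genes passed in delEx44 against WT, 7 higher and 17 lower, when 50.2% of all tested genes passed, 25.2% higher and 25.0% lower. The median log2 fold was -0.36 over the channel genes and -0.00394 over all genes. After running 20 of 56 passed, 7 higher and 13 lower, beside 29.1% of all genes (14.9% higher and 14.2% lower). At 18 months 31 of 55 passed, 14 higher and 17 lower, beside 52.7% of all genes (28.8% higher and 23.8% lower). Of the 52 channel genes tested at all 3 stages, 5 were higher at each (9.62%), beside 11.0% of the 14139 genes tested at all 3, and 10 were lower at each (19.2%), beside 8.78%. Without WT replicate 3 the 4-week count was 23, beside 48.5% of all genes.

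In corrected against delEx44 muscle 25 of 56 passed at 4 weeks, 18 higher and 7 lower, beside 46.3% of all genes (22.1% higher and 24.2% lower). After running 15 of 56 passed, 10 higher and 5 lower, beside 23.2% (10.8% higher and 12.4% lower). At 18 months 29 of 55 passed, 14 higher and 15 lower, beside 41.0% (19.6% higher and 21.4% lower). Without corrected replicate 2, 27 passed, beside 36.3% of all genes. These comparisons share the delEx44 libraries with those against WT, so values of all 3 genotypes are given side by side.

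**Figure D2:**
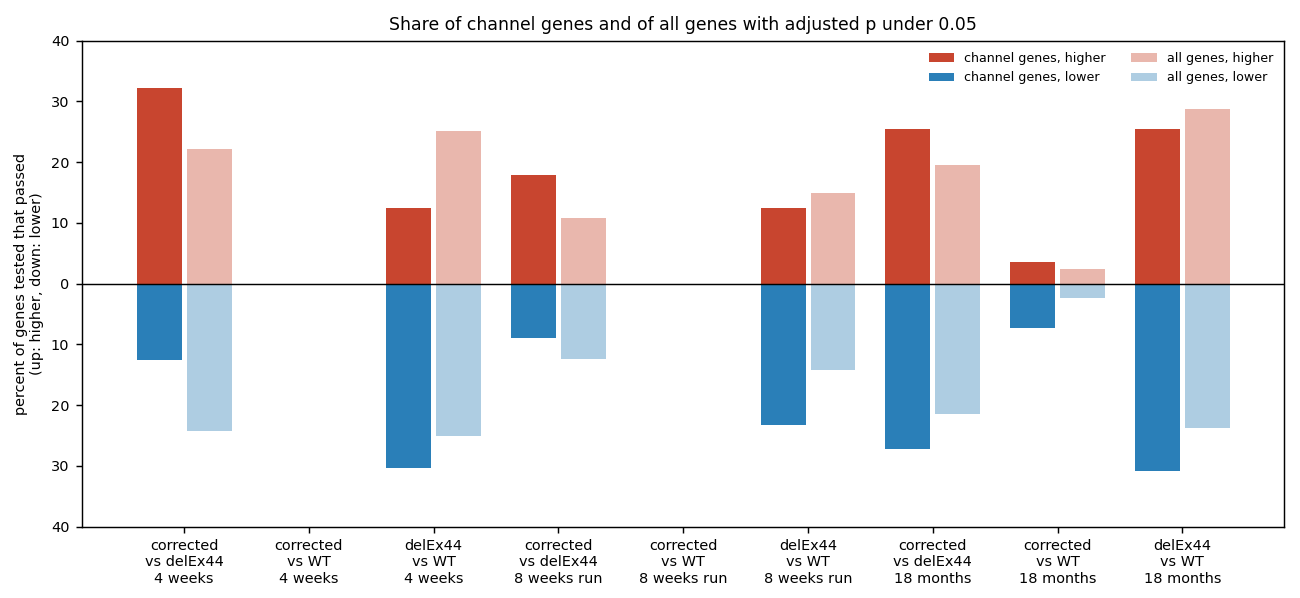
Percent of tested channel genes (dark bars) and of all tested genes (light bars) that passed as higher (upward) or lower (downward) in each of the 9 genotype comparisons. In delEx44 against WT at 4 weeks, 25.2% of all genes passed as higher and 25.0% as lower, and of 56 channel genes 7 and 17.

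Of the voltage-gated pore subunits, 24 were tested in each table. In delEx44 against WT 1 was higher and 8 lower at 4 weeks, beside 25.2% and 25.0% of all genes. After running 2 were higher and 7 lower, beside 14.9% and 14.2%. At 18 months 4 were higher and 8 lower, beside 28.8% and 23.8%. Kcna2, Kcnc4 and Kcng4 were among those lower at all 3 stages.

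Kcng4 encodes a modifier subunit that forms channels only together with other voltage-gated subunits. Kcng4 had 80.2, 96.4 and 113 CPM in corrected, 32.6, 35.7 and 35.2 CPM in delEx44, and 123, 104 and 81.7 CPM in WT libraries at 4 weeks. Kcng4 after running had 111 and 114 CPM in corrected, 43.7 and 40.8 CPM in delEx44, and 93.3 and 95.6 CPM in WT. Kcng4 at 18 months had 34.3, 29.9 and 26.8 CPM in corrected, 5.09, 7.70 and 7.38 CPM in delEx44, and 37.3, 39.6 and 27.7 CPM in WT. No delEx44 library reached a corrected or WT library of its stage. The delEx44 over WT fold was -1.58 ± 0.14 at 4 weeks (edgeR adjusted p = 3.4e-06), -1.16 ± 0.17 after running (0.00043) and -2.38 ± 0.19 at 18 months (2e-05). Corrected over delEx44 it was 1.48 ± 0.14, 1.42 ± 0.17 and 2.17 ± 0.19, each past the threshold.

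The Kcnc subunits form fast voltage-gated channels that shorten the action potential. Kcnc4, the most abundant of them per exon length, had 99.8, 99.4 and 98.5 CPM in corrected, 35.4, 60.4 and 55.3 CPM in delEx44, and 97.0, 89.9 and 103 CPM in WT libraries at 4 weeks. Kcnc4 after running had 80.6 and 98.2 CPM in corrected, 59.2 and 72.2 CPM in delEx44, and 106 and 115 CPM in WT. At 18 months its values were 66.4, 62.1 and 63.2 CPM in corrected, 46.2, 52.3 and 48.1 CPM in delEx44, and 67.4, 66.1 and 53.4 CPM in WT. The delEx44 libraries were below all corrected and WT libraries at each stage, though at 18 months the lowest WT library lay just above the highest delEx44 library. By edgeR the delEx44 over WT fold was -0.94 ± 0.16 at 4 weeks (adjusted p = 0.00044), -0.75 ± 0.19 after running (0.013) and -0.35 ± 0.09 at 18 months (0.0083). The call after running was lost without WT replicate 2 or delEx44 replicate 1 (adjusted p 0.078 to 0.098).

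Kcnc1 had 65.3, 75.3 and 85.1 CPM in delEx44, against 92.6, 95.4 and 68.7 CPM in WT at 4 weeks, which overlap, and 82.4, 79.8 and 79.3 CPM in delEx44, against 136, 120.1 and 131 CPM in WT at 18 months, which do not. Its fold was -0.19 ± 0.13 at 4 weeks (edgeR adjusted p = 0.24) and -0.68 ± 0.13 at 18 months (0.0022), and the test of the difference between the ages did not pass. Kcnc2 went the other way and was higher in delEx44 at 18 months, at 2.63, 1.92 and 2.66 CPM, against 1.34, 1.13 and 1.04 CPM in WT (1.03 ± 0.27, edgeR adjusted p = 0.0084), with 0.850, 0.800 and 1.5 CPM in corrected libraries.

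Among the Kcna subunits, Kcna1 and Kcna2 form low-threshold channels best known from myelinated axons, and Kcna7 is the main one of the fibre by level here. Kcna1 had 7.10, 7.40 and 7.72 CPM in corrected, 2.91, 3.63 and 3.56 CPM in delEx44, and 6.46, 9.13 and 7.62 CPM in WT libraries at 4 weeks. Kcna2 had 9.34, 9.76 and 9.60 CPM in corrected, 4.61, 6.13 and 4.74 CPM in delEx44, and 8.82, 7.29 and 7.91 CPM in WT at that stage. Both were lower in delEx44 without overlap, by -1.20 ± 0.15 for Kcna1 (edgeR adjusted p = 3.2e-05) and -0.63 ± 0.12 for Kcna2 (0.00059). After running the folds were -1.0 ± 0.18 for Kcna1 (edgeR adjusted p = 0.0017) and -0.69 ± 0.14 for Kcna2 (0.0032). At 18 months Kcna2 was lower by -0.68 ± 0.15 (edgeR adjusted p = 0.0043), and Kcna1 did not pass (-0.54 ± 0.21, adjusted p = 0.056). In corrected against delEx44 after running, Kcna2 passed with 0.52 ± 0.14 and lost the call without delEx44 replicate 1, corrected replicate 1 or corrected replicate 3 (adjusted p 0.078 to 0.12). Of 6 Schwann cell markers, 5 fell below WT in delEx44 muscle at 4 weeks, 4 after running and 2 at 18 months. Their summed level at 4 weeks was 151 to 182 CPM in corrected, 76.6 to 95.6 in delEx44 and 127 to 209 CPM in WT. At 18 months it was 74.4 to 108 CPM in corrected, 77.8 to 85.5 in delEx44 and 98.1 to 113 CPM in WT. There the corrected and delEx44 sums overlapped, and the sums themselves were not tested. By edgeR, Kcna2 passed as higher in corrected than in delEx44 at 18 months. Mag, a myelin gene of that list, averaged 1.42 CPM in corrected, 1.11 CPM in delEx44 and 1.28 CPM in WT libraries at 4 weeks. It does not stand for the list, of which 5 of 6 fell below WT in delEx44 there. Neuron markers summed to 0.216 to 0.641 CPM in corrected, 0.136 to 0.171 CPM in delEx44, and 0.469 to 1.10 CPM in WT libraries at 4 weeks, where the delEx44 libraries were lowest without overlap. Snap25 of that list was at most 0.0665 CPM in any library, and the part of nerve in the result was not tested.

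Kcna7 had 185, 179 and 208 CPM in corrected, 101, 128 and 129 CPM in delEx44, and 224, 168 and 178 CPM in WT libraries at 4 weeks. After running its values were 204 and 195 CPM in corrected, 212 and 178 CPM in delEx44, and 227 and 249.5 CPM in WT. Kcna7 at 18 months had 169.9, 181 and 159 CPM in corrected, 139, 167 and 149 CPM in delEx44, and 194, 191 and 206 CPM in WT. It fell below WT in delEx44 muscle at 4 weeks (-0.67 ± 0.12, edgeR adjusted p = 0.00054) and at 18 months (-0.37 ± 0.08, 0.0031), while after running the fold of -0.29 ± 0.15 did not pass (0.16). Corrected over delEx44 it was 0.68 ± 0.12 at 4 weeks (edgeR adjusted p = 0.00062) and 0.16 ± 0.08 at 18 months, where the groups overlap (0.13). Kcna3, known from lymphocytes and macrophages, was counted at most 19 times in a library. Its counts at 4 weeks were 4, 2 and 5 in corrected, 17, 17 and 5 in delEx44, and 3, 0 and 0 in WT libraries, and at 18 months 6, 4 and 11 in corrected, 14, 19 and 8 in delEx44, and 3, 2 and 0 in WT. delEx44 was higher than WT at both stages (edgeR adjusted p = 0.006 and 0.0076), and no fold is given at these counts. All 7 macrophage markers were higher in the same comparisons. Of 6 tested lymphocyte markers 4 were higher and 1 lower in delEx44 at 4 weeks, with sums of 5.71 to 10.1 CPM in delEx44 and 1.26 to 7.14 CPM in WT libraries, and their part in the result was not tested.

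Kcnd3 set corrected mice apart from both other genotypes at 18 months. Kcnd3, a transient outward channel, had 4.05, 3.72 and 3.57 CPM in corrected, 1.5, 1.79 and 1.40 CPM in delEx44, and 1.81, 1.39 and 2.27 CPM in WT libraries at that age. The corrected libraries were highest without overlap, at 1.27 ± 0.20 over delEx44 (edgeR adjusted p = 0.00079) and 1.06 ± 0.20 over WT (0.025), while at 4 weeks every library of the 3 genotypes was between 0.268 and 0.545 CPM. Against WT the call was lost without WT replicate 1 or 2 or corrected replicate 1 (adjusted p 0.068 to 0.11). Kcnq5, a subunit of the M-current family, had 15.9, 13.8 and 18.9 CPM in corrected, 12.7, 11.4 and 11.6 CPM in delEx44, and 14.8, 12.2 and 9.55 CPM in WT at 4 weeks. It passed in corrected against delEx44 (0.44 ± 0.16, edgeR adjusted p = 0.04), a call lost without any of the 3 delEx44 libraries or without corrected replicate 1 or 3 (0.063 to 0.17).

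**Figure D3:**
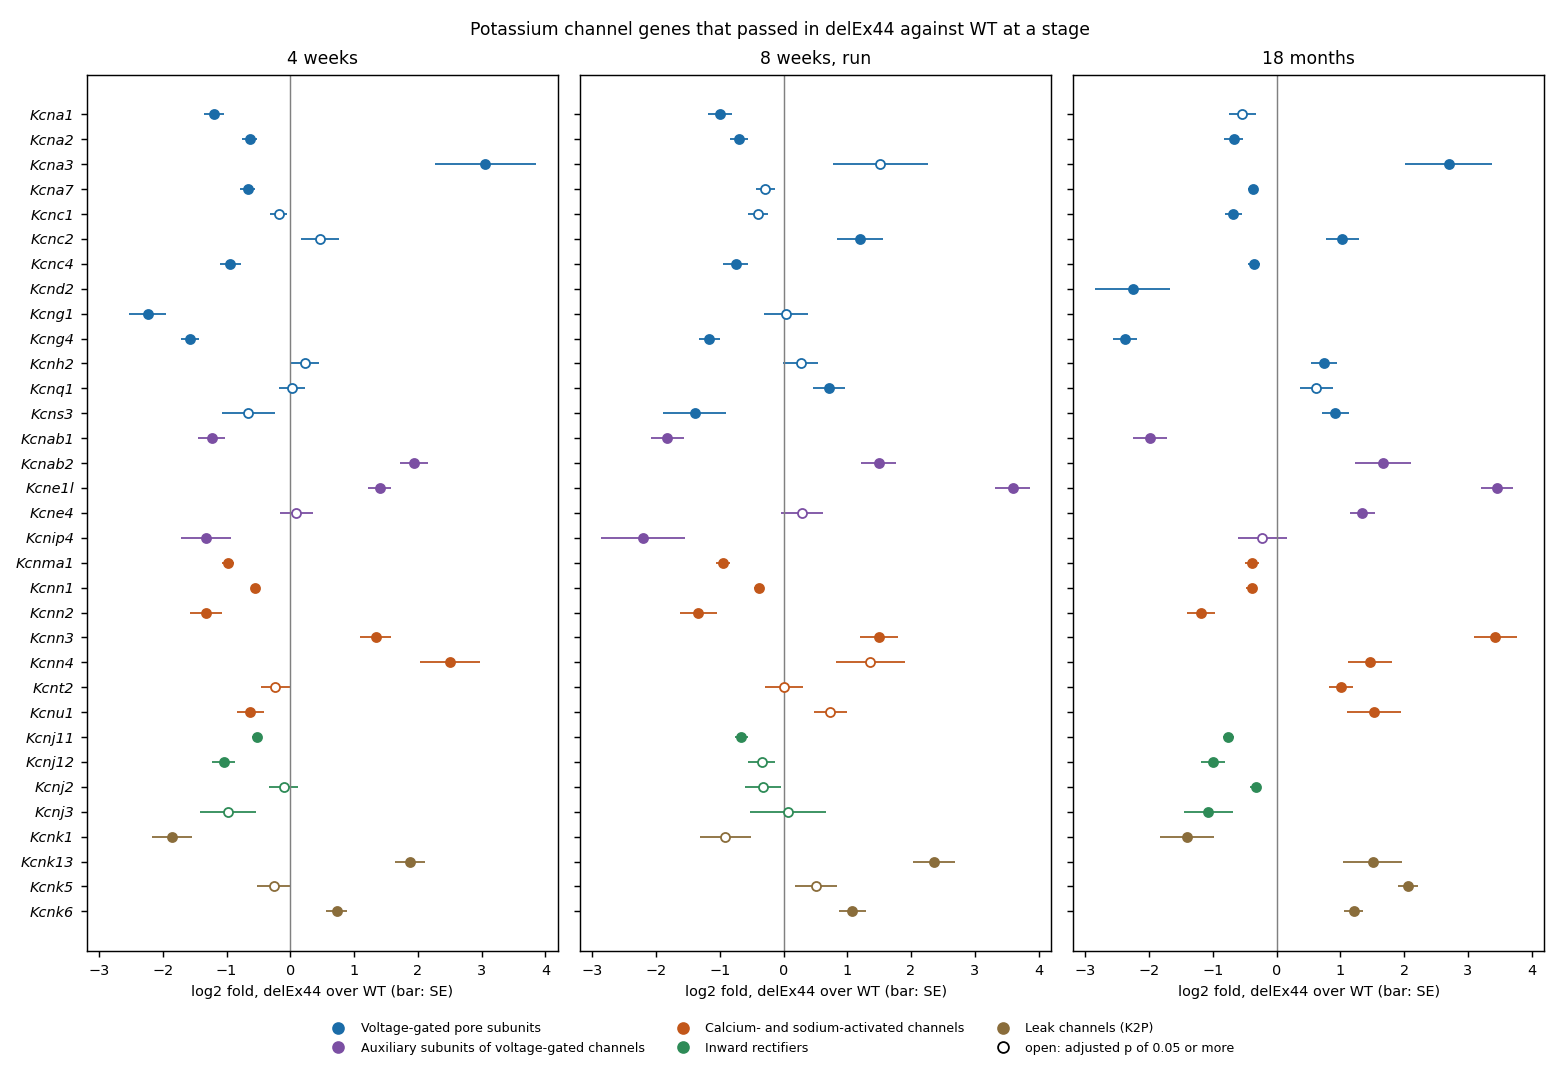
Log2 fold of delEx44 over WT with its SE for channel genes that passed at 1 stage or more, by stage and coloured by channel class; filled points passed and open points did not. Kcne1l lies at 1.40, 3.59 and 3.46, Kcnn3 at 1.34, 1.49 and 3.43, and Kcng4 at -1.58, -1.16 and -2.38 in the order of stages.

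Of the auxiliary subunits, 9 were tested at 4 weeks and after running and 8 at 18 months. In delEx44 against WT 2 were higher and 2 lower at 4 weeks, beside 25.2% and 25.0% of all genes. After running 2 were higher and 2 lower, beside 14.9% and 14.2%. At 18 months 3 were higher and 1 lower, beside 28.8% and 23.8%. Kcnab1 and Kcnab2, the cytoplasmic beta subunits of Kcna channels, went in opposite directions at all 3 stages.

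Kcnab1 had 4.37, 4.95 and 5.80 CPM in corrected, 1.76, 3.09 and 1.95 CPM in delEx44, and 6.14, 5.56 and 4.34 CPM in WT libraries at 4 weeks. Kcnab1 at 18 months had 13.6, 25.9 and 13.1 CPM in corrected, 4.91, 4.92 and 4.89 CPM in delEx44, and 17.7, 18.1 and 22.6 CPM in WT. It fell below WT in delEx44 muscle without overlap, by -1.24 ± 0.21 at 4 weeks (edgeR adjusted p = 0.00033), -1.82 ± 0.26 after running (0.00031) and -1.99 ± 0.26 at 18 months (0.00034). Kcnab2, by contrast, had 4.32, 5.62 and 3.23 CPM in corrected, 11.8, 11.6 and 11.8 CPM in delEx44, and 2.83, 2.64 and 3.66 CPM in WT libraries at 4 weeks. Kcnab2 at 18 months had 2.55, 1.16 and 5.32 CPM in corrected, 4.91, 5.27 and 4.56 CPM in delEx44, and 1.74, 1.46 and 1.42 CPM in WT. It was higher in delEx44 than in WT by 1.94 ± 0.22 (edgeR adjusted p = 1.8e-05), 1.49 ± 0.28 after running (0.0017) and 1.67 ± 0.44 (0.011). The corrected libraries at 18 months ranged across both other groups, with the lowest value in replicate 2, and did not differ from delEx44 by the test (-0.70 ± 0.41, edgeR adjusted p = 0.21). After running, corrected was lower than delEx44 by -1.20 ± 0.27, a call lost without delEx44 replicate 2 or corrected replicate 1 (adjusted p 0.082 to 0.092).

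Kcne1l, also called Kcne5, encodes a single-span subunit that restrains Kcnq1 channels. Kcne1l had 5.70, 5.92 and 5.57 CPM in corrected, 15.6, 18.2 and 14.0 CPM in delEx44, and 6.58, 5.31 and 6.19 CPM in WT libraries at 4 weeks. Kcne1l after running had 0.921 and 1.79 CPM in corrected, 7.96 and 10.3 CPM in delEx44, and 0.890 and 0.621 CPM in WT. Kcne1l at 18 months had 0.463, 0.360 and 0.464 CPM in corrected, 3.80, 3.04 and 3.33 CPM in delEx44, and 0.398, 0.232 and 0.284 CPM in WT. The delEx44 libraries were highest at each stage without overlap, by 1.40 ± 0.18 over WT at 4 weeks (edgeR adjusted p = 3.6e-05), 3.59 ± 0.27 after running (1e-05) and 3.46 ± 0.25 at 18 months (7.9e-06). Corrected over delEx44 the folds were -1.48 ± 0.18, -2.74 ± 0.25 and -2.97 ± 0.24, each past the threshold. Markers of regenerating fibres were higher in delEx44 than in WT in the same comparisons, 5 of 5 at each stage, with sums at 4 weeks of 51.5 to 62.4 CPM in corrected, 386 to 927 CPM in delEx44, and 33.2 to 53.3 CPM in WT. Chrng, the fetal subunit of the acetylcholine receptor, averaged 1.29 CPM in corrected, 23.1 CPM in delEx44 and 1.20 CPM in WT at that stage. After running the marker sums were 27.6 to 45.8 CPM in corrected, 139.9 to 215 in delEx44 and 14.1 to 14.7 CPM in WT. At 18 months they were 37.7 to 54.3 CPM in corrected, 121 to 165 in delEx44 and 19.4 to 22.6 CPM in WT. In delEx44 both later ranges lay below that at 4 weeks, and so did the Kcne1l values of the delEx44 libraries. The WT values of Kcne1l were also lower at both later stages, where its delEx44 over WT fold was larger. The part of regenerating fibres in the values of Kcne1l was not tested. Kcne4, another single-span subunit, had 3.13, 4.44 and 4.21 CPM in corrected, 12.3, 7.58 and 9.48 CPM in delEx44, and 4.31, 3.55 and 3.74 CPM in WT libraries at 18 months. It was higher in delEx44 than in WT at that age (1.34 ± 0.20, edgeR adjusted p = 0.00035) and had a fold of 0.09 ± 0.26 at 4 weeks (0.79). Kcne3, a partner of Kcnc4 in muscle, lay between 0.325 and 1.05 CPM in all 24 libraries and passed in no genotype comparison.

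Of the calcium- and sodium-activated channels, 9 were tested in each table. Between delEx44 and WT 2 were higher and 4 lower in delEx44 at 4 weeks, beside 25.2% and 25.0% of all genes. After running 1 was higher and 3 lower, beside 14.9% and 14.2%. At 18 months 4 were higher and 3 lower, beside 28.8% and 23.8%. The big-conductance channel Kcnma1 and the small-conductance channels Kcnn1 and Kcnn2 were lower at all 3 stages, and the small-conductance channel Kcnn3 was higher at all 3.

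Kcnma1 had 46.3, 48.7 and 48.4 CPM in corrected, 23.3, 23.3 and 21.9 CPM in delEx44, and 53.4, 43.1 and 38.9 CPM in WT libraries at 4 weeks. Kcnma1 after running had 34.2 and 33.8 CPM in corrected, 22.8 and 25.9 CPM in delEx44, and 47.5 and 46.5 CPM in WT. Kcnma1 at 18 months had 91.2, 102 and 71.7 CPM in corrected, 71.5, 77.5 and 71.3 CPM in delEx44, and 94.3, 93.7 and 100.3 CPM in WT. The delEx44 libraries were below the WT libraries at each stage, by -0.98 ± 0.09 (edgeR adjusted p = 4.1e-06), -0.95 ± 0.11 (0.00013) and -0.39 ± 0.11 (0.013) in the order of stages. Corrected over delEx44 the fold was 1.07 ± 0.09 at 4 weeks (edgeR adjusted p = 5.6e-06), 0.48 ± 0.11 after running (0.0098) and 0.27 ± 0.11 at 18 months, where the groups overlap (0.075). The call after running was lost without delEx44 replicate 1 or corrected replicate 1 (adjusted p 0.062 to 0.073). A model on the other strand overlaps 5.98% of the exons of Kcnma1, and the strand used in counting is not given in the sources.

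Kcnn1 had 17.5, 18.2 and 18.8 CPM in corrected, 10.7, 11.4 and 11.9 CPM in delEx44, and 17.8, 15.6 and 16.5 CPM in WT libraries at 4 weeks. Kcnn1 after running had 25.0 and 25.0 CPM in corrected, 20.6 and 18.9 CPM in delEx44, and 25.6 and 25.9 CPM in WT, and at 18 months 16.6, 18.5 and 15.6 CPM in corrected, 13.5, 15.1 and 14.0 CPM in delEx44, and 19.4, 18.4 and 18.2 CPM in WT. The spread within groups was small, and delEx44 was lower than WT by -0.55 ± 0.07 (edgeR adjusted p = 2.8e-05), -0.38 ± 0.08 (0.0039) and -0.39 ± 0.09 (0.0036). Corrected was higher than delEx44 by 0.68 ± 0.07, 0.34 ± 0.08 and 0.25 ± 0.09. The call after running was lost without delEx44 replicate 2 or corrected replicate 1 (adjusted p 0.062 to 0.084), and that at 18 months without delEx44 replicate 1 or 3 or corrected replicate 1 or 2 (0.062 to 0.14). Kcnn2 had 2.83, 1.89 and 3.60 CPM in corrected, 1.25, 1.54 and 1.22 CPM in delEx44, and 3.90, 3.21 and 2.97 CPM in WT libraries at 4 weeks, and 2.05, 3.88 and 3.21 CPM in corrected, 2.31, 2.27 and 2.39 CPM in delEx44, and 5.75, 5.64 and 4.40 CPM in WT at 18 months. It fell below WT in delEx44 muscle by -1.33 ± 0.25 at 4 weeks (edgeR adjusted p = 0.00062), -1.34 ± 0.29 after running (0.0043, and 0.052 without WT replicate 2) and -1.18 ± 0.22 at 18 months (0.0012). At 18 months the corrected libraries overlapped delEx44 and lay below all WT libraries, and neither difference passed (edgeR adjusted p = 0.18 and 0.06).

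Kcnn3, in contrast, was higher in delEx44 muscle throughout. Kcnn3 had 4.72, 4.34 and 5.71 CPM in corrected, 14.5, 9.17 and 8.01 CPM in delEx44, and 5.48, 3.57 and 3.45 CPM in WT libraries at 4 weeks. Kcnn3 after running had 2.82 and 4.13 CPM in corrected, 10.8 and 9.08 CPM in delEx44, and 3.35 and 3.70 CPM in WT. Kcnn3 at 18 months had 8.46, 3.00 and 8.60 CPM in corrected, 48.1, 42.2 and 42.0 CPM in delEx44, and 4.49, 3.75 and 4.07 CPM in WT. All delEx44 libraries were above all others of their stage, by 1.34 ± 0.24 over WT at 4 weeks (edgeR adjusted p = 0.00057), 1.49 ± 0.30 after running (0.0029) and 3.43 ± 0.34 at 18 months (0.00013). The delEx44 mean was 253% of the WT mean at 4 weeks, 282% after running and 1075% at 18 months. Corrected was lower than delEx44 by -1.10 ± 0.24, -1.51 ± 0.30 and -2.72 ± 0.32, and the call after running had an adjusted p of 0.056 without corrected replicate 1. Kcnn4, the intermediate-conductance channel of leukocytes, had 0.999, 1.02 and 0.726 CPM in corrected, 5.38, 5.95 and 5.30 CPM in delEx44, and 0.315, 0.505 and 2.05 CPM in WT libraries at 4 weeks, with the highest WT value in replicate 3. It was higher in delEx44 than in WT at 4 weeks (2.50 ± 0.47, edgeR adjusted p = 0.001) and at 18 months (1.46 ± 0.35, 0.0056), when corrected had 1.27, 1.00 and 1.86 CPM, delEx44 1.74, 1.85 and 1.66 CPM, and WT 0.868, 0.697 and 0.284 CPM. After running the delEx44 libraries were above all others, at 1.5 and 1.84 CPM in corrected, 3.98 and 5.98 CPM in delEx44, and 2.43 and 1.44 CPM in WT, but the fold of 1.36 ± 0.54 did not pass (0.077).

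The remaining named genes of the class concern late age. Kcnt2, a sodium-activated channel, had 2.63, 2.04 and 2.93 CPM in corrected, 4.40, 5.21 and 4.62 CPM in delEx44, and 1.85, 2.52 and 2.7 CPM in WT libraries at 18 months, and was higher in delEx44 than in WT (1.01 ± 0.19, edgeR adjusted p = 0.0014). At 4 weeks all 9 libraries lay between 0.805 and 1.19 CPM. Kcnu1, a channel otherwise known from sperm, passed in opposite directions at 4 weeks and 18 months: delEx44 had 1.23, 1.32 and 1.17 CPM, against 1.95, 1.81 and 1.99 CPM in WT at 4 weeks (-0.63 ± 0.21, edgeR adjusted p = 0.025), and 0.988, 1.25 and 1.13 CPM, against 0.362, 0.266 and 0.568 CPM in WT at 18 months (1.52 ± 0.42, 0.012). The first call was lost without WT replicate 1 or 3 or delEx44 replicate 1 or 3 (adjusted p 0.056 to 0.07), and the second without WT replicate 2 (0.055).

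Of the inward rectifiers, 8 were tested in each table, and none was higher in delEx44 than in WT at any stage by edgeR. Lower were 2 at 4 weeks, 1 after running and 4 at 18 months, beside 25.0%, 14.2% and 23.8% of all genes. Higher at these stages were 25.2%, 14.9% and 28.8% of all genes.

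Kcnj11, the pore of the ATP-sensitive channel of the fibre, had 143, 151 and 147 CPM in corrected, 85.5, 90.7 and 105 CPM in delEx44, and 147, 131 and 127 CPM in WT libraries at 4 weeks. Kcnj11 after running had 160.4 and 177 CPM in corrected, 120.0 and 127 CPM in delEx44, and 188 and 202 CPM in WT. Kcnj11 at 18 months had 105, 107 and 91.4 CPM in corrected, 58.7, 71.8 and 65.4 CPM in delEx44, and 118, 109.7 and 103 CPM in WT. It was the 1 inward rectifier that was lower in delEx44 at all 3 stages, with no overlap, by -0.52 ± 0.08 (edgeR adjusted p = 0.00019), -0.66 ± 0.10 (0.00052) and -0.76 ± 0.09 (0.00012). Corrected was higher than delEx44 by 0.65 ± 0.08, 0.45 ± 0.10 and 0.63 ± 0.09, each past the threshold. Kcnj8, the pore of the vascular ATP-sensitive channel, had 26.5, 17.1 and 23.3 CPM in corrected, 15.7, 17.6 and 13.7 CPM in delEx44, and 17.4, 22.0 and 14.3 CPM in WT libraries at 4 weeks. It did not pass in delEx44 against WT at any stage, with folds of -0.19, -0.14 and -0.12. In corrected against delEx44 at 4 weeks it passed (0.51 ± 0.19, edgeR adjusted p = 0.046) although the groups overlap, and the call was lost without delEx44 replicate 1 or 3 or corrected replicate 1 or 3 (0.11 to 0.17).

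Kcnj12, a classical inward rectifier of the fibre, had 78.6, 98.6 and 96.0 CPM in corrected, 43.4, 40.3 and 54.7 CPM in delEx44, and 103, 91.4 and 91.8 CPM in WT libraries at 4 weeks. After running it had 129.6 and 96.9 CPM in corrected, 115 and 74.7 CPM in delEx44, and 109.7 and 131 CPM in WT. Kcnj12 at 18 months had 101, 121 and 73.2 CPM in corrected, 36.1, 50.5 and 44.2 CPM in delEx44, and 93.0, 81.1 and 87.2 CPM in WT. It fell below WT in delEx44 muscle without overlap at 4 weeks (-1.05 ± 0.18, edgeR adjusted p = 0.00043) and at 18 months (-1.0 ± 0.18, 0.0021), while after running the groups overlapped and the fold of -0.34 ± 0.21 did not pass (0.25). Kcnj2, the other classical inward rectifier, had 95.1, 58.1 and 94.0 CPM in corrected, 62.6, 45.2 and 55.4 CPM in delEx44, and 58.2, 63.9 and 53.1 CPM in WT at 4 weeks. Kcnj2 at 18 months had 75.1, 81.2 and 93.7 CPM in corrected, 115, 105 and 111 CPM in delEx44, and 139.8, 134 and 143 CPM in WT. At that age the 3 genotypes did not overlap, with corrected lowest: -0.41 ± 0.08 against delEx44 (edgeR adjusted p = 0.003), -0.74 ± 0.08 against WT (0.0059), and delEx44 against WT -0.33 ± 0.08 (0.0066). At 4 weeks corrected passed as higher than delEx44 (0.60 ± 0.23, edgeR adjusted p = 0.049), a call lost without any of the 3 delEx44 libraries or without corrected replicate 1 or 3 (0.059 to 0.16).

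**Figure D4:**
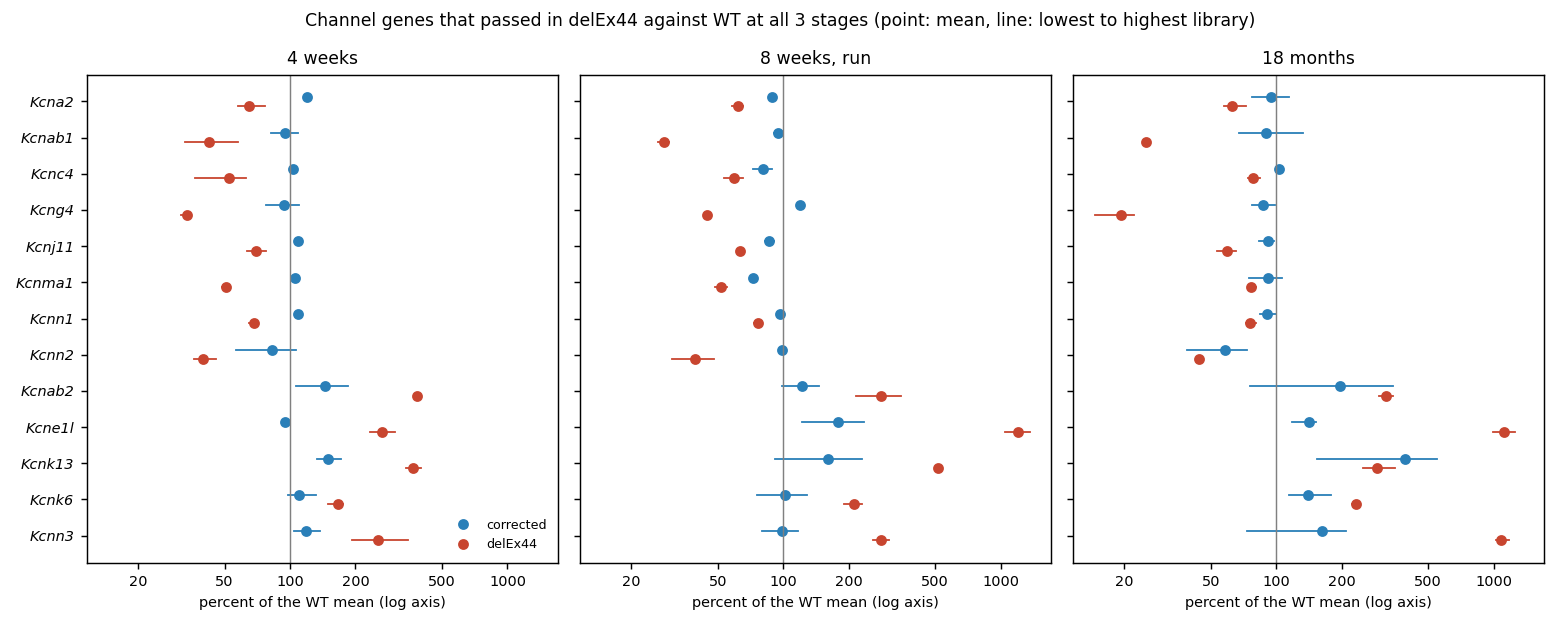
Level of 13 channel genes in corrected (blue) and delEx44 (red) libraries as percent of the WT mean of the same stage, on a log axis; points are group means and lines run from the lowest to the highest library. Kcng4 in delEx44 stands at 33.5%, 44.7% and 19.3%, and in corrected at 93.7%, 119% and 87.0%; each gene shown passed in delEx44 against WT at all 3 stages.

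Of the leak channels (K2P), 6 were tested in each table. Relative to WT 2 were higher and 1 lower in delEx44 at 4 weeks, beside 25.2% and 25.0% of all genes. After running 2 were higher and 0 lower, beside 14.9% and 14.2%. At 18 months 3 were higher and 1 lower, beside 28.8% and 23.8%. Kcnk6 and Kcnk13 were higher at all 3 stages.

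Kcnk6 had 7.64, 10.0 and 7.49 CPM in corrected, 11.4, 13.4 and 13.1 CPM in delEx44, and 7.31, 8.01 and 7.59 CPM in WT libraries at 4 weeks. Kcnk6 after running had 3.38 and 5.70 CPM in corrected, 10.3 and 8.47 CPM in delEx44, and 4.72 and 4.18 CPM in WT. Kcnk6 at 18 months had 7.45, 6.72 and 10.4 CPM in corrected, 13.8, 13.8 and 13.0 CPM in delEx44, and 5.97, 5.98 and 5.59 CPM in WT. delEx44 was higher than WT without overlap by 0.73 ± 0.17 (edgeR adjusted p = 0.0026), 1.08 ± 0.21 (0.0023) and 1.21 ± 0.15 (0.00013), and corrected was lower than delEx44 by -0.59 ± 0.16, -1.05 ± 0.21 and -0.72 ± 0.14. Kcnk13, a channel known from microglia, had 1.51, 1.95 and 1.68 CPM in corrected, 4.59, 3.90 and 4.10 CPM in delEx44, and 1.13, 1.19 and 1.10 CPM in WT libraries at 4 weeks. Kcnk13 at 18 months had 3.01, 1.00 and 3.57 CPM in corrected, 1.77, 2.27 and 1.63 CPM in delEx44, and 0.905, 0.664 and 0.379 CPM in WT. It was higher in delEx44 than in WT by 1.88 ± 0.24 at 4 weeks (edgeR adjusted p = 3.4e-05), 2.36 ± 0.33 after running (0.00029) and 1.51 ± 0.46 at 18 months (0.021, and 0.062 to 0.073 without WT replicate 2 or 3 or delEx44 replicate 2). At 18 months the corrected libraries ranged around delEx44 and were higher than WT (1.93 ± 0.46, edgeR adjusted p = 0.046), with the lowest value again in replicate 2. The call was lost without any of the 3 WT libraries or without corrected replicate 1 or 3 (0.097 to 0.16). Macrophage markers at 18 months summed to between 169.8 and 655 CPM in corrected, 620.5 and 705 CPM in delEx44, and 154 and 225 CPM in WT, and their part in the values of Kcnk13 was not tested.

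Kcnk5, an acid-sensitive channel known from kidney, had 2.40, 3.85 and 2.41 CPM in corrected, 1.55, 3.11 and 2.56 CPM in delEx44, and 3.05, 2.78 and 2.77 CPM in WT libraries at 4 weeks, which overlap. Kcnk5 after running had 1.35 and 2.21 CPM in corrected, 3.35 and 2.44 CPM in delEx44, and 2.19 and 1.86 CPM in WT. Kcnk5 at 18 months had 3.86, 2.56 and 3.00 CPM in corrected, 13.1, 11.6 and 11.5 CPM in delEx44, and 3.11, 2.86 and 2.7 CPM in WT. At that age alone of the 3 stages it passed, at 2.06 ± 0.15 in delEx44 over WT (edgeR adjusted p = 9.3e-06) and -1.94 ± 0.15 in corrected over delEx44 (2.1e-05). Kcnk2, a stretch-sensitive channel, and Kcnk3, an acid-sensitive channel, were lower in corrected than in delEx44 at 18 months. Kcnk2 had 2.86, 3.88 and 2.57 CPM in corrected, 6.41, 5.34 and 5.45 CPM in delEx44, and 5.17, 5.18 and 4.55 CPM in WT, at -0.89 ± 0.17 against delEx44 (edgeR adjusted p = 0.0021) and -0.68 ± 0.17 against WT (0.048). Kcnk3 had 0.695, 1.12 and 0.892 CPM in corrected, 3.92, 2.37 and 2.69 CPM in delEx44, and 2.46, 2.16 and 2.94 CPM in WT, at -1.73 ± 0.26 against delEx44 (edgeR adjusted p = 0.00063) and -1.47 ± 0.27 against WT (0.022). Against WT the call of Kcnk2 was lost without any of the 3 WT libraries or without corrected replicate 1 or 3 (adjusted p 0.09 to 0.16), and that of Kcnk3 without any of the 3 WT libraries or without corrected replicate 1 (0.063 to 0.085).

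Adipocyte markers were set beside Kcnk3. At 18 months 3 of the 4 tested markers were lower in corrected than in delEx44, and their summed level was 62.0 to 211 CPM in corrected, 315 to 413 CPM in delEx44, and 230 to 278 CPM in WT. The sums of delEx44 and WT did not overlap there, and their Kcnk3 values did. Ucp1, of brown fat, averaged 0.0133 CPM in corrected, 0.0 CPM in delEx44 and 0.0111 CPM in WT libraries at that age. The highest Kcnk3 values of the younger WT groups, 4.02 CPM in replicate 3 at 4 weeks and 8.01 CPM in replicate 1 after running, came from the WT libraries with the highest adipocyte sums of their stage, 198 and 335 CPM. The part of fat in the values of Kcnk3 was not tested. Models on the other strand overlap 5.76% of the exons of Kcnk3 and 12.2% of those of Kcnk2.

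Corrected and WT muscle were compared directly at each stage. At 4 weeks 0 of 56 channel genes passed by edgeR, beside 0.0% of all genes. At an unadjusted p under 0.05 were 7 channel genes and 1497 of all 15013 genes. DESeq2 passed 1.47% of all genes there and 0 of the 44 channel genes to which it gave an adjusted p. After running 0 of 56 passed by edgeR, beside 0.02% of all genes (0.00666% higher and 0.0133% lower). At an unadjusted p under 0.05 were 4 channel genes and 1455 of all 15013 genes. DESeq2 passed 1 of the 48 channel genes with an adjusted p, beside 0.546% of all genes. A p that misses the threshold does not show equal levels: for Kcnma1, lower in delEx44 at every stage, the fold of corrected over WT after running was -0.47 ± 0.11, and no corrected library reached a WT library. At 18 months 6 of 55 passed, beside 4.76% of all genes. Kcnd3 and Kcnk13 were higher (2.34% of all genes were higher), and Kcnj2, Kcnk3 and Kcnk2 were among the 4 that were lower (2.43%). Single libraries decided these counts. Without corrected replicate 2, 18 channel genes passed, 7 higher and 11 lower, when 19.6% of all genes passed. Without WT replicate 1, WT replicate 2 or corrected replicate 1 the count was 1, beside 0.337%, 0.0619% and 0.879% of all genes, and without WT replicate 3 it was 3, beside 0.947%. A fit on these 2 groups alone called 1 channel gene, beside 0.116% of all genes, and a fit with the replicate number as a block called 3, beside 1.76%.

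Running and growth together were followed within each genotype, at 8 weeks after running against 4 weeks sedentary. In corrected mice 9 of 56 channel genes passed, 4 higher and 5 lower, beside 25.8% of all genes (12.3% higher and 13.5% lower), and 4 passed without run replicate 1, beside 8.66%. In delEx44 mice 11 passed, 8 higher and 3 lower, beside 35.7% (16.4% higher and 19.3% lower), and 5 without run replicate 1, beside 20.4%. In WT mice 13 passed, 5 higher and 8 lower, beside 27.6% (13.4% higher and 14.2% lower). That count was 4 without WT run replicate 2, beside 14.5% of all genes, 7 without run replicate 1, beside 16.3%, and 7 without replicate 2 at 4 weeks, beside 20.2%. Markers of other cells also differed between these stages. Neutrophil marker sums were 62.9 to 127 CPM after running, against 0.787 to 2.54 CPM at 4 weeks in corrected mice, 52.2 to 169 CPM against 4.72 to 23.1 CPM in delEx44, and 104 to 155 CPM against 0.315 to 194.9 CPM in WT. Of the 4 neutrophil markers, 1 was higher after running in corrected, 2 in delEx44 and 0 in WT mice. Red cell marker sums were 6.78 to 6.90 CPM after running, against 0.0291 to 0.462 CPM at 4 weeks in corrected, 4.35 to 18.5 CPM against 0.0488 to 0.128 CPM in delEx44, and 11.9 to 23.3 CPM against 0.157 to 30.8 CPM in WT. Fibro-adipogenic marker sums were 1472 to 1791 CPM after running, against 2764 to 3523 CPM at 4 weeks in corrected, 2134 to 2186 CPM against 3221 to 3754 CPM in delEx44, and 1494 to 1664 CPM against 3056 to 3883 CPM in WT, and 4 of 4, 2 of 4 and 3 of 4 of these markers were lower. The part of these cells in the changes after running was not tested.

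Kcnn1 was higher at 8 weeks after running than at 4 weeks in all 3 genotypes, by 0.46 ± 0.07 in corrected (edgeR adjusted p = 0.00093), 0.80 ± 0.07 in delEx44 (1.9e-05) and 0.63 ± 0.07 in WT (0.00011). Kcnq5 was also higher in all 3, with 26.1 and 21.1 CPM after running in corrected, 21.2 and 26.1 CPM in delEx44 and 16.9 and 21.0 CPM in WT, and within each genotype every run library was above every 4-week library. Its folds were 0.54 ± 0.18 in corrected (edgeR adjusted p = 0.042), 0.99 ± 0.18 in delEx44 (0.0013) and 0.64 ± 0.18 in WT (0.021). The call was lost in corrected mice without replicate 1 or 2 at 4 weeks or replicate 1 after running (0.1 to 0.31), and in WT mice without replicate 2 or 3 at 4 weeks or replicate 2 after running (0.052 to 0.18). Kcnj11 was higher after running in delEx44 (0.40 ± 0.09, edgeR adjusted p = 0.005) and in WT (0.53 ± 0.09, 0.0011). In delEx44 mice Kcnj12 (1.04 ± 0.19, edgeR adjusted p = 0.0017) and Kcna7 (0.71 ± 0.13, 0.0015) were higher as well. Muscle fibre markers rose in that comparison, 6 of 7 in delEx44, against 1 of 7 in corrected and 0 of 7 in WT mice.

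Kcne1l was lower after running in all 3 genotypes, by -2.07 ± 0.24 in corrected (edgeR adjusted p = 0.00016), -0.81 ± 0.20 in delEx44 (0.007) and -3.0 ± 0.26 in WT (1.8e-05), and the delEx44 call had an adjusted p of 0.092 without run replicate 1. Of the markers of regenerating fibres, 1 of 5 was lower after running in corrected mice, 5 of 5 in delEx44 and 3 of 5 in WT. Their sums were 27.6 to 45.8 CPM after running, against 51.5 to 62.4 CPM at 4 weeks in corrected, 139.9 to 215 CPM against 386 to 927 CPM in delEx44, and 14.1 to 14.7 CPM against 33.2 to 53.3 CPM in WT. Kcnk13 was lower in all 3 as well, by -1.27 ± 0.29 in corrected, -0.91 ± 0.25 in delEx44 and -1.38 ± 0.33 in WT. The adjusted p of Kcnk13 was 0.086 in corrected mice without run replicate 1, 0.07 to 0.074 in delEx44 without run replicate 1 or 2, and 0.088 in WT without run replicate 2. Macrophage markers were lower after running in the first 2 genotypes, 3 of 7 in corrected and 6 of 7 in delEx44, and 0 of 7 passed in WT. Their sums were 208 to 284 CPM after running, against 320 to 423 CPM at 4 weeks in corrected, 793 to 799.6 CPM against 1085 to 1581 CPM in delEx44, and 187 to 192 CPM against 190.7 to 233.5 CPM in WT. The part of either cell type in these values was not tested. Kcnma1 (-0.49 ± 0.10) was lower after running in corrected mice (edgeR adjusted p = 0.0047), where in WT mice its fold was 0.06 ± 0.10. Whether the genotypes differed in the step to 8 weeks was tested by an interaction. In delEx44 against WT 2 of 56 genes passed, Kcne1l and the rarer Kcng1, both higher, beside 0.879% of all genes (0.586% higher and 0.293% lower), and 0 passed without either WT run library and 1 without any of the delEx44 libraries or WT replicate 1 or 2 at 4 weeks. In corrected against delEx44 0 of 56 passed by edgeR, beside 1.42% of all genes (0.406% higher and 1.01% lower). DESeq2 passed 3 of the 25 with an adjusted p, beside 5.76% of all genes. At an unadjusted p under 0.05 by edgeR were 9 of the 56 channel genes and 2763 of all 15013 genes.

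The genotype differences were also set against each other at 18 months and 4 weeks in the 18 sedentary libraries, in which 60 channel genes were tested. For delEx44 against WT 8 genes passed, all with a more positive difference at 18 months, beside 10.9% of all genes (7.02% more positive and 3.91% more negative), and 5 passed without delEx44 replicate 3 at 4 weeks or WT replicate 2 at 18 months (8.53% and 7.53%). For corrected against delEx44 16 passed, 4 more positive and 12 more negative, beside 15.9% (7.75% and 8.12%). The delEx44 over WT difference of Kcnk5 was larger at 18 months by 2.3 ± 0.31 (edgeR adjusted p = 0.00028), that of Kcnn3 by 2.07 ± 0.45 (0.0089) and that of Kcne1l by 2.04 ± 0.24 (9.6e-05), and none of these 3 calls was lost without any 1 library. Kcnma1 differed by 0.58 ± 0.16 (edgeR adjusted p = 0.03), toward a smaller deficit in delEx44, and lost the call without WT replicate 1, delEx44 replicate 1 or delEx44 replicate 3 at 4 weeks, or WT replicate 1, WT replicate 2 or delEx44 replicate 2 at 18 months (0.052 to 0.075). Kcnj2 was more negative in corrected against delEx44 at 18 months by -0.98 ± 0.22 (edgeR adjusted p = 0.0088), and Kcnk2 by -1.0 ± 0.24 (0.011).

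**Figure D5:**
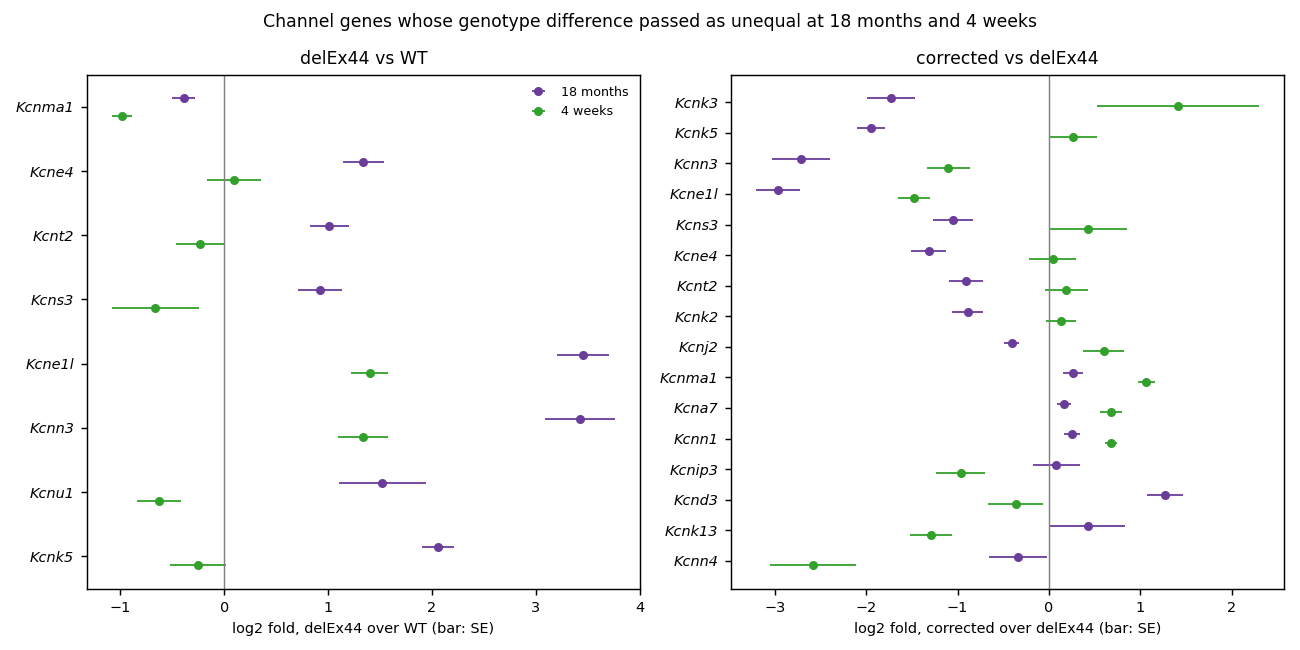
Log2 fold with its SE at 18 months (purple) and at 4 weeks (green) for the channel genes whose genotype difference passed as unequal between these stages, in delEx44 over WT (8 genes) and in corrected over delEx44 (16 genes). Kcnk5 stands at 2.06 at 18 months and -0.25 at 4 weeks in delEx44 over WT; each fold was fitted within its own table.

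Partner genes of potassium handling, a list of 36 pump, cotransporter and accessory genes, of which 31 were tested, were counted in the same fits. In delEx44 against WT 7 of the 31 were higher and 10 lower at 4 weeks, beside 25.2% and 25.0% of all genes. After running 4 were higher and 1 lower, beside 14.9% and 14.2%. At 18 months 6 were higher and 8 lower, beside 28.8% and 23.8%. Abcc9, the sulfonylurea receptor that joins Kcnj11 in the ATP-sensitive channel, averaged 220 ± 24.4 CPM in delEx44 and 397 ± 18.7 CPM in WT libraries at 4 weeks (-0.85 ± 0.10, edgeR adjusted p = 2.2e-05), and 309 ± 14.1 CPM in delEx44 and 542 ± 17.8 CPM in WT at 18 months (-0.81 ± 0.06, 1.3e-05). After running Abcc9 did not pass as lower in delEx44, and the 1 partner gene that did was Lrrc38. Lrrc38, a gamma subunit of the Kcnma1 channel, averaged 9.21 ± 0.972 CPM in delEx44 and 35.2 ± 6.15 CPM in WT at 18 months (-1.94 ± 0.16, edgeR adjusted p = 2.4e-05), and 32.6 ± 4.40 CPM in delEx44 and 72.1 ± 12.9 CPM in WT after running (-1.15 ± 0.18, 0.00076). Fxyd5, a regulator of the sodium-potassium pump, averaged 49.2 ± 2.73 CPM in delEx44 and 18.4 ± 5.00 CPM in WT at 4 weeks (1.42 ± 0.17, edgeR adjusted p = 4.5e-05). The cotransporter Slc12a2 averaged 137 ± 8.60 CPM in delEx44 and 232 ± 10.5 CPM in WT at 18 months (-0.76 ± 0.07, edgeR adjusted p = 2.6e-05), and the pump subunit Atp1b2 167 ± 9.32 CPM in delEx44 and 299 ± 20.8 CPM in WT (-0.83 ± 0.09, 5.4e-05). Tmem38a, the TRIC-A potassium channel of the sarcoplasmic reticulum, averaged 1107 ± 94.7 CPM in delEx44 and 1802 ± 132 CPM in WT at 4 weeks (-0.70 ± 0.09, edgeR adjusted p = 4.6e-05). In corrected against WT 0 partner genes passed by edgeR at 4 weeks and after running, beside 0.0% and 0.02% of all genes. At 18 months 1 was higher (Fxyd5), beside 2.34% of all genes, and 2 lower (Lrrc38 and Atp1b4), beside 2.43%. Each of these calls was lost without any of the 3 WT libraries or without corrected replicate 1. Those of Fxyd5 and Lrrc38 were also lost without corrected replicate 3.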

How the data were processed

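The authors deposited count tables, whole-number read counts per gene symbol, 1 for the 15 libraries at 4 weeks and after running and 1 for the 9 libraries at 18 months. The submitters' processing notes name edgeR, HTSeq, SAMtools 1.9, STAR 2.7.2b, Bowtie2 2.3.4.3 and Trim Galore and the build mm10. The sources used here give neither the role of each tool nor whether counting used strand. Records naming no gene (5 per table, 27.4 to 34.2% and 42.2 to 48.3% of the counts) were left out.

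The 18-month WT columns 1 and 2 carry names that also fit run libraries, so they were placed by group and their numbers are names only. Each table was fitted with edgeR 4.0.16 in R 4.3.3 (filterByExpr, TMM, robust quasi-likelihood, 1 mean per group; 15013 and 14337 genes tested), and the 18 sedentary libraries together (14937 genes) for the interactions with age. The threshold was an adjusted p of 0.05 over all genes. Levels are CPM on TMM library sizes, and levels between genes are per kb of GENCODE vM21 exons. The fits were tested on simulated data. No replicate pair agreed within sampling noise (chi-square per degree of freedom at least 9.53). DESeq2 1.42.0 and other settings were alternatives.

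Members and lists were chosen with earlier results of these data known. Named in the text are, per direction, the 6 channel genes of smallest p that passed in a genotype comparison and 4 in any other, with a mean of at least 1 CPM in a compared group, and 13 listed genes whatever their values. Some of these genes are counted but not reported by name here. The same-numbered 18-month libraries did not deviate together (9 correlations from -0.138 to 0.0867), so they were not taken as pairs. The same settings for the partner genes were chosen after seeing the data.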

Additional observations from a re-analysis of the deposited data

Results flagged for a closer look

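Each value here is a difference of log2 differences between stages, with its SE and the adjusted p of edgeR's test, and was listed because the difference itself passed its test.

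Between running and 4 weeks, delEx44 over WT was more positive after running for Kcne1l (2.19 ± 0.32, adjusted p = 0.017) and Kcng1 (2.28 ± 0.45, adjusted p = 0.036). The call of Kcne1l was lost without either WT run library, and that of Kcng1 without any 1 of 9 libraries.

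Between 18 months and 4 weeks, delEx44 over WT was more positive at 18 months for 8 genes. The values were 2.04 ± 0.24 for Kcne1l (adjusted p = 9.6e-05), 2.3 ± 0.31 for Kcnk5 (adjusted p = 0.00028), 2.14 ± 0.42 for Kcnu1 (adjusted p = 0.0035) and 2.07 ± 0.45 for Kcnn3 (adjusted p = 0.0089). For Kcnt2 the value was 1.23 ± 0.28 (adjusted p = 0.0098), for Kcne4 1.23 ± 0.33 (adjusted p = 0.024), for Kcnma1 0.58 ± 0.16 (adjusted p = 0.03) and for Kcns3 1.57 ± 0.46 (adjusted p = 0.038). Leaving out 1 library ended the call for 5 choices of library with Kcne4, 6 with Kcnma1 and 9 with Kcns3.

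Corrected over delEx44 was more positive at 18 months for Kcnd3 (1.66 ± 0.34, adjusted p = 0.0042), Kcnk13 (1.74 ± 0.44, adjusted p = 0.014), Kcnn4 (2.28 ± 0.63, adjusted p = 0.025) and Kcnip3 (1.08 ± 0.34, adjusted p = 0.04). It was more negative for Kcnk5 (-2.18 ± 0.31, adjusted p = 0.0004), Kcne1l (-1.46 ± 0.23, adjusted p = 0.00081), Kcnma1 (-0.77 ± 0.16, adjusted p = 0.0049) and Kcnj2 (-0.98 ± 0.22, adjusted p = 0.0088). Kcnk2 had -1.0 ± 0.24 (adjusted p = 0.011), Kcne4 -1.33 ± 0.32 (adjusted p = 0.013), Kcnt2 -1.06 ± 0.28 (adjusted p = 0.018) and Kcnn1 -0.40 ± 0.11 (adjusted p = 0.022). Kcnn3 had -1.58 ± 0.43 (adjusted p = 0.024), Kcnk3 -3.11 ± 0.88 (adjusted p = 0.028), Kcns3 -1.45 ± 0.47 (adjusted p = 0.044) and Kcna7 -0.48 ± 0.16 (adjusted p = 0.0499). Leaving out 1 library ended the call for 1 choice of library with Kcnt2, 3 with Kcnn3, 4 with Kcnn4, 5 with Kcnn1, 6 with Kcnk3, 9 with Kcns3, 9 with Kcna7 and 10 with Kcnip3. Age, count table and, in corrected mice, vector dose cannot be told apart in these values.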

How the results depend on the processing

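Of the 209 calls of channel genes over all comparisons, 0 changed direction under any setting run. DESeq2 kept 199 past the threshold and left 7 short of it, size factors by RLE 206 and 3, no filter on low counts 197 and 12, fits on the compared groups only 177 and 25, and the replicate block at 18 months 61 and 5. For DESeq2 and the fits on the compared groups only, the other calls of the 209 were in neither count. Counts that moved by more than 1.5 times were these. DESeq2 called 1 gene in corrected against WT after running and 3 in the running interaction of corrected against delEx44, where edgeR called 0. Of all genes DESeq2 passed 0.546% and 5.76% there, and edgeR 0.02% and 1.42%. Fits on the compared groups only called 1 in that interaction, beside 1.27% of all genes. They called 1 in corrected against WT at 18 months, beside 0.116%, where edgeR called 6, beside 4.76%. In the running interaction of delEx44 against WT edgeR called 2, beside 0.879% of all genes. There the fits on the compared groups only called 1, beside 0.275%, and no filter on low counts called 1, beside 0.622%. The replicate block called 3 in corrected against WT at 18 months, beside 1.76% of all genes. Same-numbered libraries did not deviate together, so the numbers were not taken as pairs. No paired analysis was possible at 4 weeks and after running because the labels give no replicate numbers at 4 weeks and share fewer than 2 after running. The cause of these shifts was not tested. Leaving out 1 library at a time gave 23 to 25 calls in delEx44 against WT at 4 weeks, 14 to 17 after running and 28 to 32 at 18 months. For corrected against delEx44 it gave 21 to 24, 10 to 16 and 24 to 31, and for corrected against WT 0 to 0, 0 to 0 and 1 to 18. For running against 4 weeks it gave 4 to 10 in corrected, 5 to 10 in delEx44 and 4 to 13 in WT. The running interactions gave 0 to 3 for delEx44 against WT and 0 to 1 for corrected against delEx44, and the age interactions 5 to 9 and 11 to 20. Groups of 2 rest on the spread pooled over groups, and when 1 of the 2 was left out the lone library was assumed to vary like the other groups.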
